A study of Mus musculus with 30 samples.

Results

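The genes described here encode fibronectin (Fn1), periostin (Postn), tenascin C (Tnc), thrombospondins 1 and 2 (Thbs1, Thbs2), SPARC (Sparc), versican (Vcan) and fibulin 2 (Fbln2). They were taken by name, 8 of the 43346 genes in the deposited count table, and followed through all 30 libraries. Each library held RNA of mouse stromal cells sorted as GFP negative from bone, lung or brain. In the 23 exposed libraries the tissue carried tumours grown from GFP and luciferase labelled circulating tumour cell (CTC) lines, given as 100000 cells into the left cardiac ventricle of female NSG mice aged 6 to 8 weeks with estrogen pills. NSG mice are immunodeficient and lack mature T, B and natural killer cells. Exposed bone held 2 libraries of the Brx07 line (1 from leg, 1 from skull), 4 of Brx50 and 7 of Brx68, against 3 from tumour-free mice. Exposed lung held 2 of Brx07, 1 of Brx42, 3 of Brx50 and 1 of Brx68 against 2 tumour-free, and exposed brain 3 of Brx50 against 2 tumour-free. For the tumour-free mice, called controls below, the sources used here give neither age nor estrogen treatment. The labels do not say whether each library is its own mouse, so p-values measure only the spread between these libraries. Some label codes recur across tissues and between both Brx07 bone libraries, and what a code marks is not given.

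Matricellular proteins are secreted into the extracellular matrix, where they bind cell surface receptors and tune adhesion and growth factor signals more than they build the scaffold. Fibronectin, by contrast, forms fibrils to which cells hold on through integrins, and versican is a large proteoglycan that binds hyaluronan. Fibroblasts and other mesenchymal cells make most of these proteins, megakaryocytes and other cells also make thrombospondin 1, and TGF-beta is a known inducer of several of them.

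All of the 8 are protein-coding genes of GRCm38. Fn1 lies at chr1:71585520-71653200 on the minus strand, Postn at chr3:54361109-54391037 on the plus strand and Tnc at chr4:63959785-64047015 on the minus strand. Thbs1 lies at chr2:118111876-118127133 (plus) and Thbs2 at chr17:14665500-14694235 (minus). Sparc lies at chr11:55394500-55423183 (minus), Vcan at chr13:89655312-89742509 (minus) and Fbln2 at chr6:91212455-91272540 (plus). Exons of a gene on the opposite strand overlap exons of Fn1, Tnc and Thbs1 (Apol7d, 8030451A03Rik and Gm29233), and the strand setting of the counting is not given. Those overlapping genes held at most 13, 123 and 70 counts in any library.

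The RefSeq promoter table (GRCm38.p6) matched 6 of the 8, and Fn1 and Thbs1 had no entry. Postn, Tnc and Thbs2, the genes that separated tumour-free bone from lung most (below), are shown by the 250 bases before a transcription start. Each is written 5′ to 3′ on the gene's strand, and none overlaps an annotated exon. Capitals mark matches to the TATA box motif (TATAAA) in Postn and Tnc. In Thbs2 they mark this motif on the other strand and 2 copies of the SMAD motif CAGAC, also on the other strand. Postn and Tnc each had another window, not shown, and CAGAC was present on either strand in both, as in the Sparc window. The windows are chr3:54360857-54361106 (plus), chr4:64047016-64047265 (minus) and chr17:14694263-14694512 (minus).
Postn: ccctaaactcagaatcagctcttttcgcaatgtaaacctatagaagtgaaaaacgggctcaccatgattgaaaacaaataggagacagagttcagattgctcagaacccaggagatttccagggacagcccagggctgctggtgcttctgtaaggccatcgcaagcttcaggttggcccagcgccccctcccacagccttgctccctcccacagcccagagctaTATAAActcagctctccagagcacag
Tnc: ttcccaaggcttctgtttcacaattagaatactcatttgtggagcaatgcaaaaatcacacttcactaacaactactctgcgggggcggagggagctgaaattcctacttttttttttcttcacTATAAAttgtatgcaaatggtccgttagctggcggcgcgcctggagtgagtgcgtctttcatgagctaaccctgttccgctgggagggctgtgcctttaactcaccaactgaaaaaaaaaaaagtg
Thbs2: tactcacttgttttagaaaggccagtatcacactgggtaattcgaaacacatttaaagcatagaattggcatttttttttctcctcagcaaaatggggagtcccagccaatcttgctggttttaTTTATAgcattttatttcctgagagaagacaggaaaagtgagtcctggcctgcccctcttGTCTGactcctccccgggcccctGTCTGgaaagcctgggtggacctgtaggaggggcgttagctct
TATAAA lay 26 to 21 bases before the Postn start and 126 to 121 bases before the Tnc start, and the reversed copy lay at 126 to 121 bases in Thbs2. Searched on both strands, TATAAA was present in 12.3% of 32536 windows of this length, and CAGAC in 42.2%. TGANTCA (AP-1, in 6.73% of windows) and CATTCC (TEAD, in 12.6%) were not in these 3 windows, nor was the CArG box (in 1.48%).

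Total counts ran from 4289012 to 15646947 per library. The lung marker Sftpc stood at 62.4 to 3046 CPM (read counts scaled to a common library total) in lung libraries and at no more than 3.73 CPM in bone and brain. Aqp4, an astrocyte gene, stood at 96.8 to 487 CPM in brain libraries, but also at 127 CPM in exposed bone replicate 2, the skull library. It also stood at 60.4, 16.8, 10.6 and 7.20 CPM in exposed bone replicates 5, 9, 4 and 6, whose labels name no bone. Bone controls held at most 0.46 CPM. Mpo and Elane, made by neutrophil precursors of the marrow, were present in the bone controls and listed at 0 in exposed bone replicate 12. Exposed lung replicates 1 (Brx07) and 6 (Brx50) stood apart from the other lung libraries. The endothelial list (5 genes) summed to 1111 CPM in replicate 1 and 161 CPM in replicate 6, against 4473 to 6134 CPM in the other 7 lung libraries, controls included. In bulk samples such as these, fewer cells of a type and less RNA per cell cannot be told apart.

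In tumour-free tissue, bone held the highest level of each of the 8 genes and brain the lowest of 6. Thbs1, which encodes a ligand of CD36 and CD47 that can activate latent TGF-beta, spanned the widest range, from 10.05 and 13.9 CPM in brain to 3095 and 2907 CPM in lung. Bone controls stood at 3462, 5291 and 3831 CPM for this gene. Bone and lung were therefore close for Thbs1, and both stood far above brain.

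**Figure D1:**
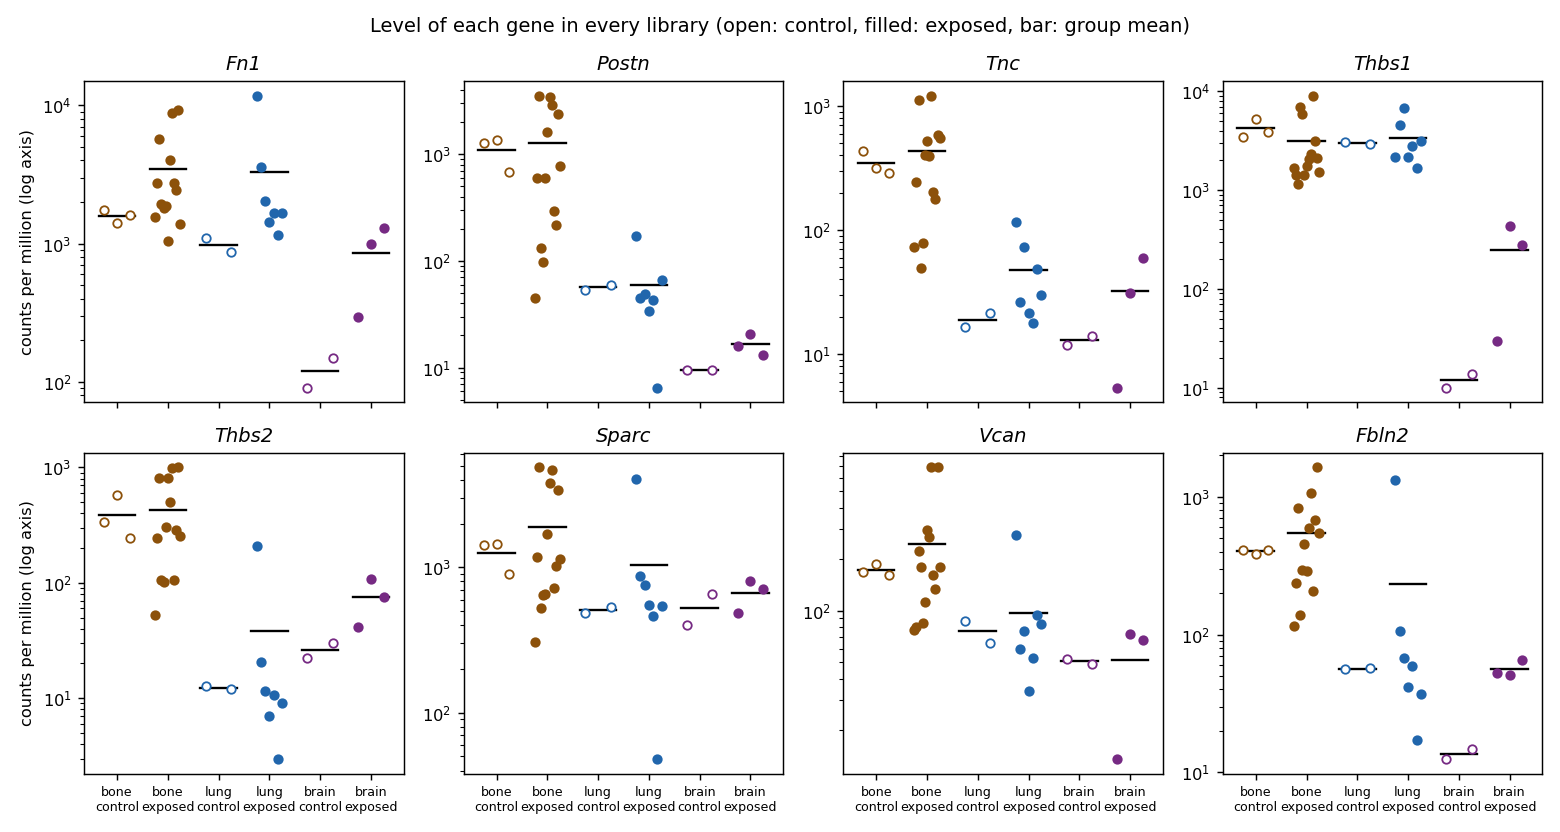
CPM (log axis) of each of the 8 genes in every library of the 6 groups, with open points for controls, filled points for exposed libraries and a bar at the group mean. Exposed bone spreads widely around its controls, from 45.4 to 3537 CPM for Postn, while the exposed brain points for Fn1, Thbs1, Thbs2, Postn and Fbln2 all lie above both brain controls.

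Per base of exon, bone controls held most Thbs1 (mean 691 RPKM, which is CPM divided by the exonic length in kilobases), followed by Sparc (332 RPKM), Fn1 (135 RPKM) and Postn (126 RPKM). Vcan was lowest there, at 11.9 RPKM. In lung controls Thbs1 (494 RPKM) was again followed by Sparc (134 RPKM) and Fn1 (84.3 RPKM). In brain controls Sparc, a collagen-binding protein that astrocytes and endothelial cells also make, stood at 139 RPKM, and the next gene, Fn1, at 10.3 RPKM. The order of the genes by level per length therefore differed between brain and the other tissues.

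Between controls, bone was higher than lung for 7 of the 8 genes, higher than brain for 8 of 8, and lung was higher than brain for 6 of 8 (edgeR's quasi-likelihood test, Benjamini-Hochberg adjusted p under 0.05). Over all 18859 genes tested, the share called higher was 22.5%, 37.0% and 34.6%. Thbs2, Postn and Tnc separated bone from lung most. Thbs2 stood at 334, 578 and 246 CPM in bone controls and at 12.8 and 11.9 CPM in lung controls, a log2 difference of 4.94 (SE 0.43, adjusted p = 2.92e-05). Postn, which takes its name from the periosteum, stood at 1279, 1345 and 678 CPM in bone, 53.6 and 59.5 CPM in lung and 9.41 and 9.59 CPM in brain. Its log2 difference was 4.26 (SE 0.30) between bone and lung and 7.00 (SE 0.37) between bone and brain, with adjusted p values of 1.04e-06 and 1.81e-08. No Postn value of one tissue overlapped that of another.

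Tnc, which encodes a large anti-adhesive glycoprotein, stood at 435, 316 and 290.5 CPM in bone, 16.4 and 21.5 CPM in lung and 11.8 and 13.99 CPM in brain. Its log2 difference was 4.17 between bone and lung (SE 0.21) and 0.72 between lung and brain (SE 0.23, adjusted p = 0.0139). Fbln2, a protein of basement membranes and elastic fibres, stood at 408, 383 and 412 CPM in bone, 56.1 and 57.1 CPM in lung and 12.4 and 14.7 CPM in brain. The Fbln2 libraries of a tissue lay close together, and its log2 difference between bone and lung was 2.79 (SE 0.13).

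Fn1 differed by 0.65 (log2, SE 0.20, adjusted p = 0.0206) between bone and lung controls and by 3.86 (SE 0.24, adjusted p = 2.05e-08) between bone and brain. Sparc and Vcan had the smallest differences between bone and brain, at 1.40 (SE 0.26, adjusted p = 4.64e-04) and 1.91 (SE 0.16, adjusted p = 2.15e-07). Genes whose neighbouring tissues did not differ past the threshold were Thbs1 in bone against lung (log2 difference 0.46, adjusted p = 0.0896), and Sparc (0.12, 95% interval -0.48 to 0.72) and Thbs2 (-0.91, adjusted p = 0.0899) in lung against brain. With 2 or 3 libraries a group, 1 library could decide a call. Fn1 between bone and lung was not called without bone control replicate 1 (adjusted p = 0.0508) or lung control replicate 2 (0.187). Tnc between lung and brain was not called without brain control replicate 1 (0.106) or lung control replicate 2 (0.0895), nor by limma-voom (0.0599). Thbs1 between bone and lung was called without bone control replicate 1 (0.0400), with no filter on low counts (0.0248) and by limma-voom (0.0359), and Thbs2 between lung and brain without bone control replicate 2 or 3 (0.00139 and 0.0144). Sparc between lung and brain turned to -0.21 without brain control replicate 1.

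In bone with tumours, the 8 genes did not move as a block. Fn1 was above the highest control in 10 of 13 exposed libraries, and Thbs1 was below the lowest control in 10 of 13 and above the highest in the other 3. The remaining 6 genes had exposed libraries both above and below the controls. None of the 8 passed the test of exposed against control, and none had an unadjusted p under 0.05. Over the 18278 genes tested, edgeR called 0.0% and gave 2.46% an unadjusted p under 0.05.

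Fn1 stood at 1050 to 9226 CPM in exposed bone (median 2423) and at 1741, 1401 and 1602 CPM in the controls. The log2 fold change was 1.16 (SE 0.69, 95% interval -0.30 to 2.63, adjusted p = 0.985). At least 10 of 13 exposed libraries above all controls was reached by 4.71% of the genes tested. limma-voom with quality weights called Fn1 (log2 fold change 0.99, adjusted p = 0.0345) in a fit that called 15.8% of genes, while DESeq2 did not call any of the 8 and called 0.093% of genes. In 0.0328% of genes all 13 exposed libraries lay above the controls, as they did for none of the 8.

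Thbs1 stood at 1149 to 9016 CPM in exposed bone (median 2060), with replicates 4, 5 and 10 at 6972, 5916 and 9016 CPM. The other 10 lay between 1149 and 3120 CPM, under the lowest control at 3462 CPM. The log2 fold change was -0.43 (SE 0.61, 95% interval -1.71 to 0.86). At least 10 of 13 libraries below all controls was reached by 9.47% of genes.

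**Figure D2:**
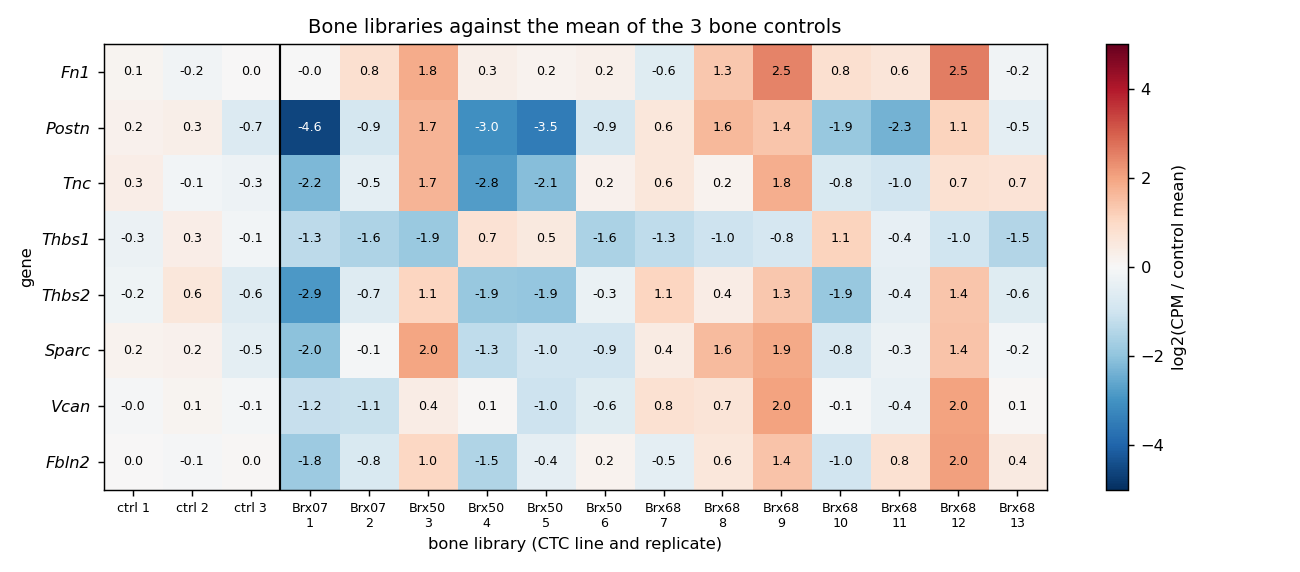
The log2 ratio of CPM to the mean of the 3 bone controls for each of the 8 genes (rows) in the 3 control and 13 exposed bone libraries (columns, with CTC line and replicate). Replicates 3, 9 and 12 are red in every row but Thbs1, whereas replicates 4, 5 and 10 are red for Thbs1 and blue for Postn, Tnc, Thbs2 and Sparc.

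Postn spanned a 78.0-fold range among exposed bone libraries, from 45.4 to 3537 CPM (median 601), while its 3 controls spanned 678 to 1345 CPM. Its log2 fold change was 0.24 (SE 1.06), and it turned to -0.02 without exposed replicate 8 and to -0.02 without control replicate 3. Tnc stood at 49.9 to 1214 CPM (median 393) against 290.5 to 435 CPM in the controls, with 5 exposed libraries above and 6 below. Thbs2, a paralog of Thbs1 that acts in collagen fibril assembly, stood at 52.3 to 1006 CPM (median 284) against 246 to 578 CPM. Its log2 fold change of 0.13 (SE 0.76) turned negative without exposed replicate 9 (-0.06) or 12 (-0.04) or control replicate 3 (-0.13). For these 3 genes the exposed libraries therefore enclosed the controls on both sides.

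Sparc stood at 308 to 4893 CPM in exposed bone (median 1133) against 894 to 1458 CPM in the controls (log2 fold change 0.61, SE 0.80). Vcan stood at 77.4 to 691 CPM (median 179) against 161 to 188 CPM (0.52, SE 0.66). Fbln2 stood at 115 to 1645 CPM (median 458) against 383 to 412 CPM (0.46, SE 0.68), with 7 exposed libraries above and 6 below all controls. The spread among exposed libraries exceeded the difference of the means for each of these genes.

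A few libraries carried many of the high values. Exposed replicates 3 (Brx50), 9 and 12 (both Brx68) were above the highest control in 7 of the 8 genes, all but Thbs1, which was below the lowest control in each. Replicates 7 and 8 (both Brx68) exceeded the controls in 5 genes each, replicate 7 in Postn, Tnc, Thbs2, Sparc and Vcan. Replicates 5 (Brx50) and 10 (Brx68) showed the reverse, with 6 genes below the lowest control and Fn1 and Thbs1 above the highest. Replicate 4 (Brx50) had 5 genes below and the same pair above. In replicate 1 (Brx07, leg) 7 genes were below the controls and none above.

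Across the 13 exposed bone libraries, Postn followed Sparc (Pearson's r of log2(CPM + 1) 0.94, Spearman's rho 0.96), Thbs2 (r 0.93, rho 0.87) and Tnc (r 0.91, rho 0.87). Without the 2 libraries farthest from the Postn median, these r were 0.93, 0.89 and 0.87. Postn and Fn1 were less alike (r 0.60, rho 0.55). Thbs1 had a negative r with each of the other 7 genes, from -0.09 with Vcan to -0.60 with Tnc. Rank correlations of Thbs1 with Fn1 and Vcan were positive, at 0.12 and 0.14. These are descriptions over 28 pairs of genes measured in the same libraries, which share cell makeup and depth, and no test was made of them.

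Of 10267 genes with at least 10 CPM on average, those most like Sparc in exposed bone were Clec11a (r 0.99), Col3a1 (r 0.98) and Mmp2 (r 0.98). Postn was most like Aebp1, Mmp14 and Lrrc15 (each r 0.97). Adamts2 and Rab12 were among the nearest to Thbs2 (each r 0.98), and Tnc was most like Ptgfrn (r 0.95), Serpina3h (0.93) and Antxr1 (0.92). Fbln2 was most like Lamc1 (r 0.97), and Fn1 most like Praf2 (0.95). The genes nearest to Thbs1 were Ninj1 (r 0.87), Cxcl2 (0.84) and Myh9 (0.82), and those nearest to Vcan were Sept2 (0.94), Ehd4 (0.93) and Sar1a (0.92). No gene stood among the nearest 3 of more than 1 of the 8.

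Summed markers of other cell types moved with these values in some libraries, but the fibroblast sum did not in replicate 7. The fibroblast list (7 genes) summed to 4133, 3421, 4084 and 5133 CPM in exposed replicates 3, 8, 9 and 12, to 699 to 2549 CPM in the other 9, and to 1016 to 1217 CPM in the controls. The joint and cartilage list (6 genes) summed to 1733, 1956, 2472 and 2371 CPM in those 4 libraries, against 134 to 844 CPM in the other 9 and 102 to 141 CPM in the controls. The highest 4 exposed values of Fn1, Postn and Sparc fell in the same 4 libraries. Replicate 7 held 1617 CPM of Postn, 811 CPM of Thbs2 and 295 CPM of Vcan, each above all controls, with a fibroblast sum of 937 CPM, under the lowest control, and a joint and cartilage sum of 307 CPM. Its pericyte and smooth muscle sum (5 genes) was 3563 CPM, against 924 to 1561 CPM in the controls. Its osteoblast sum (6 genes) was 378 CPM, against 232 to 340 CPM, and its endothelial sum of 1479 CPM lay within the controls. The part of these cell types in the result was not tested.

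The neutrophil list (7 genes) summed to 28355 to 37278 CPM in the controls, to 18386 to 51868 CPM in exposed replicates 1, 4, 5, 10 and 11, and to 2.69 to 2274 CPM in the other 8. The 4 highest Thbs1 values of exposed bone were those of replicates 10, 4, 5 and 11. Replicate 1 had the next to highest neutrophil sum, 42464 CPM, and a Thbs1 level of 1679 CPM. The megakaryocyte and platelet list (6 genes) reached at most 103 CPM in an exposed and 53.6 CPM in a control bone library, and Gp1bb of that list was listed at 0 in each of the 16 bone libraries. The part of these cell types in the Thbs1 values was not tested.

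**Figure D3:**
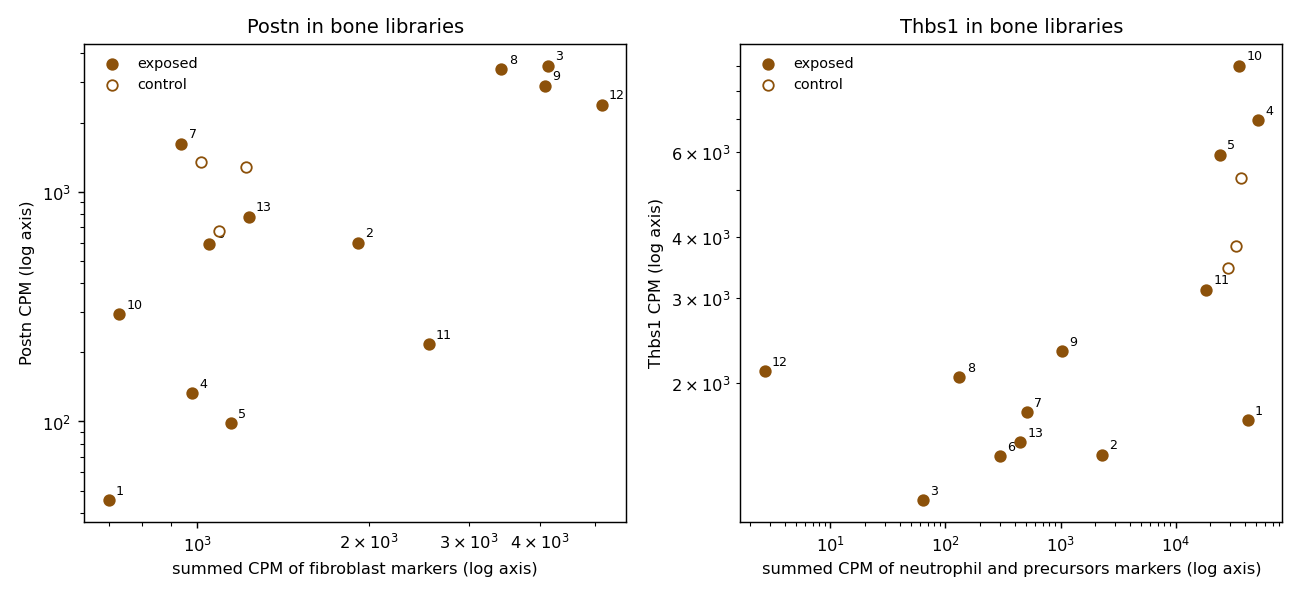
Left, Postn against the summed CPM of 7 fibroblast markers; right, Thbs1 against the summed CPM of 7 neutrophil markers, in the 13 exposed (filled, numbered by replicate) and 3 control (open) bone libraries, all axes logarithmic. Replicates 3, 8, 9 and 12 lie at the upper right for Postn, and replicates 10, 4 and 5 lie above the controls for Thbs1 while replicate 1 lies far below them at a like neutrophil sum.

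No difference between CTC lines passed the test in bone. Between 7 Brx68 and 4 Brx50 libraries, edgeR called 0 of the 8 and 0.0% of the 16628 genes tested. Vcan was the only one of the 8 with an unadjusted p under 0.05 (3.96% of all genes tested). It stood at 133 to 691 CPM with Brx68 (median 271 CPM in replicate 8) and at 223, 181, 85.0 and 113 CPM with Brx50. The log2 difference was 1.27 (SE 0.57, 95% interval 0.03 to 2.51, adjusted p = 0.984). For the other 7 the log2 difference ran from -0.21 (Thbs1) to 0.82 (Fbln2), and 1 library moved several of them. Without exposed replicate 3 (Brx50), that of Postn went from 0.66 to 2.81, that of Sparc from 0.54 to 2.14, that of Thbs2 from 0.79 to 1.87, that of Fbln2 to 1.45 and that of Fn1 from 0.67 to 1.36. That of Tnc (0.36) went to 1.72 without replicate 3 and turned to -0.04 without replicate 9, and that of Thbs1 to 0.23 without replicate 4 and to 0.03 without replicate 5. With limma-voom Postn stood at 2.93 and Tnc at 2.21. DESeq2 and limma-voom called 0 of the 8 here as well, with 0.186% and 0.0% of all genes called.

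In lung, Fn1 was the single gene of the 8 whose exposed libraries all lay above both controls. Replicate 1 held the highest exposed value of 7 genes, and replicate 6 the lowest of 6. None of the 8 passed the test or had an unadjusted p under 0.05 (over 17132 genes edgeR called 0.0%, and 0.689% had such a p). DESeq2 and limma-voom called 0 of the 8 too, and 0.0175% and 0.00584% of all genes.

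Fn1 stood at 1152 to 11765 CPM in exposed lung (median 1660) against 1102 and 867 CPM in the controls. Full separation of this kind was met by 1.02% of genes tested. The log2 fold change was 1.84 (SE 1.03, 95% interval -0.48 to 4.15, adjusted p = 1.00). It was 0.98 without exposed replicate 1, and 1.08 without replicates 1 and 6. Brx50 libraries alone, at 1434, 1656 and 1152 CPM, gave a log2 fold change of 0.59.

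Tnc stood at 17.9 to 117 CPM (median 29.7) in exposed lung against 16.4 and 21.5 CPM, with 5 of 7 libraries above both controls and none below (log2 fold change 1.43, SE 0.79). Thbs1 stood at 1681 to 6800 CPM (median 2809) against 3095 and 2907 CPM, and its log2 fold change of 0.18 (SE 0.53) turned to -0.10 without exposed replicate 3. Exposed lung thus lay on both sides of the controls for Thbs1.

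Exposed lung replicate 1, highest in each gene but Thbs1, stood at 4046 CPM for Sparc, 1316 CPM for Fbln2, 207 CPM for Thbs2, 278 CPM for Vcan and 172 CPM for Postn. The next highest exposed values were 868, 107, 20.7, 94.3 and 66.4 CPM. Without this library the log2 fold changes of Postn, Thbs2, Vcan and Fbln2 were -0.46, -0.25, -0.12 and -0.04, where the full set gave 0.14, 1.74, 0.45 and 2.17. The log2 fold change of Sparc was 1.11 with and 0.08 without it.

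The same library had a fibroblast sum of 4064 CPM against 113 to 1233 CPM in the other exposed and 460 to 570 CPM in the control lungs. Its lung epithelium sum (3 genes) was 120 CPM, against 375 to 3849 CPM in the other exposed lungs and 1799 to 2269 CPM in the controls. Replicate 6 held the lowest exposed Sparc (47.9 CPM), Postn (6.49 CPM), Thbs2 (2.96 CPM) and Fbln2 (17.0 CPM), and its fibroblast sum of 113 CPM was the lowest of the lung libraries. None of the 7 fibroblast markers was at 0 in any lung library. The part of this makeup in the lung values was not tested.

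In brain, Fn1, Thbs1, Thbs2, Postn and Fbln2 were higher in each of the 3 exposed libraries than in both controls. Full separation in this direction was met by 19.9% of the 16734 genes tested. None of the 8 passed edgeR's test, which called 0.00598% of genes, and 4 of the 8 had an unadjusted p under 0.05 and a higher level, against 9.14% of all genes. DESeq2 and limma-voom each called those 4 (Fn1, Thbs1, Thbs2 and Fbln2), in fits that called 4.25% and 5.37% of genes.

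Thbs1 stood at 29.6, 433 and 277 CPM in exposed brain and at 10.05 and 13.9 CPM in the controls. Exposed replicate 1 was nearest to the controls. That library had the lowest total of all, 4289012 counts, and 16344 genes detected against 19139 to 24146 in the other brain libraries. The log2 fold change was 4.28 (SE 1.08, 95% interval 1.71 to 6.86, adjusted p = 0.251). Without exposed replicate 1 it was 4.81 and edgeR called it (adjusted p = 0.0348). Over the alternatives the adjusted p ran from 3.37e-05 with DESeq2 to 1.00 without control replicate 1.

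Fbln2 stood at 52.9, 50.5 and 65.1 CPM in exposed brain and at 12.4 and 14.7 CPM in the controls. These were the most even values of the genes that separated. The log2 fold change was 2.00 (SE 0.28, 95% interval 1.33 to 2.67, p = 2.20e-04, adjusted p = 0.210). With no filter on low counts edgeR called it (adjusted p = 0.00408), and DESeq2 gave an adjusted p of 3.99e-06.

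Fn1 stood at 294, 1000 and 1288 CPM in exposed brain against 90.9 and 149 CPM (log2 fold change 2.78, SE 0.67, adjusted p = 0.248). Thbs2 stood at 41.5, 107 and 75.4 CPM against 22.5 and 29.8 CPM (1.45, SE 0.41, adjusted p = 0.279). Postn stood at 16.1, 20.6 and 13.1 CPM against 9.41 and 9.59 CPM (0.75, SE 0.36, 95% interval -0.12 to 1.61). Postn thus stayed low in brain in both groups, under 21 CPM.

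Tnc stood at 5.36, 30.9 and 59.9 CPM in exposed brain against 11.8 and 13.99 CPM, with replicate 1 below and the other 2 above both controls (log2 fold change 1.26, SE 0.85). Vcan, which neural and oligodendrocyte precursor cells also make, stood at 13.5, 72.8 and 67.2 CPM against 52.3 and 49.0 CPM. Its log2 fold change was -0.05 (SE 0.62), and 0.39 without exposed replicate 1. Sparc stood at 483, 808 and 706 CPM against 398 and 658 CPM (0.28, SE 0.35), and at -0.06 without control replicate 1. For these 3 the groups overlapped.

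**Figure D4:**
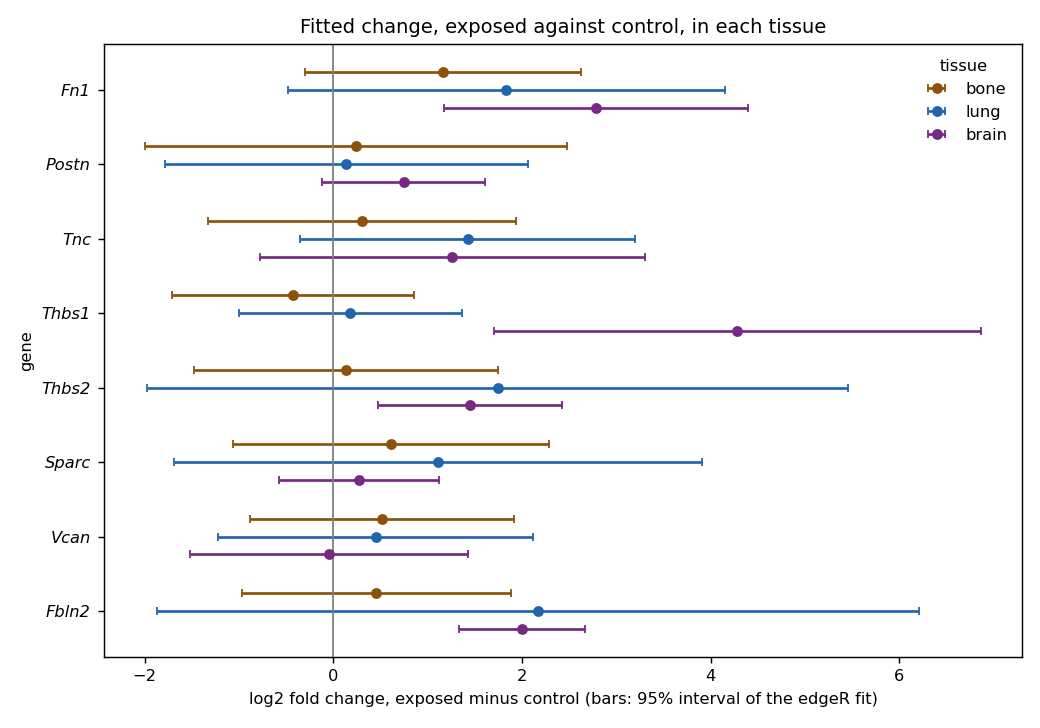
Fitted log2 fold change of exposed against control (points) with its 95% interval (bars) for each of the 8 genes in bone, lung and brain. The brain intervals of Fn1, Thbs1, Thbs2 and Fbln2 lie above 0, and each bone and lung interval spans 0.

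Markers differed between exposed and control brain as well. The monocyte and macrophage list (6 genes) summed to 1075 to 2883 CPM in exposed and 332 to 538 CPM in control brain, and the neuron list (4 genes) to 413 to 1555 against 1906 to 2526 CPM. The neutrophil list summed to 25.2, 3560 and 119 CPM in exposed and 15.1 and 15.7 CPM in control brain. The fibroblast list summed to 45.5, 110 and 145 CPM in exposed and 64.1 and 67.6 CPM in control brain. Of that list, Dpt, Pdpn, Mfap5 and Lum were listed at 0 in exposed replicate 1. Dcn stood at 0.47, 41.7 and 55.0 CPM in exposed and 7.18 and 9.33 CPM in control brain. Pdgfra is also in the list of oligodendrocyte precursor markers, so the sum in brain is not of fibroblasts alone. The meningeal fibroblast list (5 genes) summed to 123 to 181 CPM in exposed and 149 to 163 CPM in control brain. The megakaryocyte and platelet list summed to 13.5, 17.8 and 14.9 CPM in exposed and 3.83 and 6.66 CPM in control brain, higher in each exposed library. Of its 6 genes, 5 were listed at 0 in exposed replicate 1, so that its sum there was Itga2b alone. In exposed replicate 2, 4 were listed at 0, and in each control 2. The platelet chemokines Pf4 and Ppbp were at 0 in both of these exposed replicates. The epithelium list (Epcam, Krt8, Krt18 and Krt19) summed to 16.6 to 38.4 CPM in exposed and 2.39 and 5.20 CPM in control brain. It ran from 2.10 to 641 CPM (median 100) in exposed bone against 21.6 to 30.5 CPM in the controls. In lung it ran from 183 to 372 CPM in exposed and 149 to 197 CPM in control libraries. The part of these cells, or of human reads, in the brain values was not tested.

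Set side by side, Fn1 was above every control of its own tissue in 20 of the 23 exposed libraries, 10 of 13 in bone, 7 of 7 in lung and 3 of 3 in brain. Of 14758 genes tested in all 3 tissues, 0.102% reached 20 of 23. The other 7 genes reached between 9 (Thbs1, Thbs2 and Vcan) and 14 (Fbln2) of 23. This count was looked at after the values were seen.

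The fitted change in Thbs1 was larger in brain than in bone by 4.69 on the log2 scale (SE 1.18, 95% interval 2.27 to 7.11, p = 4.68e-04, adjusted p = 0.267). Exposed brain held only Brx50 libraries while exposed bone and lung pooled several lines, so these comparisons do not separate tissue from line. Some label codes recur between the compared tissues, and the fit treated all libraries as separate. edgeR called 0.0% of 21233 genes in this comparison of changes, and 8.35% had an unadjusted p under 0.05 (3.95% in brain against lung and 1.12% in lung against bone). DESeq2 (adjusted p = 0.00348) and limma-voom (5.85e-04) called the difference, in fits that called 0.499% and 7.75% of genes. Between brain and lung the difference was 4.09 (SE 1.21, adjusted p = 0.954), and limma-voom called it (adjusted p = 0.00385, with 2.14% of genes called) while DESeq2 did not (adjusted p = 0.0525, with 0.0895% of genes called). The change in Fn1 differed by 1.59 between brain and bone (SE 1.18, 95% interval -0.83 to 4.01, adjusted p = 0.713), an interval that includes 0 and differences of several fold. Of the 8 genes edgeR called 0 in each of the 3 comparisons of changes, and in lung against bone DESeq2 and limma-voom called 0 as well. Unadjusted p values under 0.05 were those of Thbs1 in brain against bone and in brain against lung.

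The paralogs Thbs1 and Thbs2 divided differently by tissue. Per base of exon, Thbs1 exceeded Thbs2 279-fold and 282-fold in lung controls and 11.96-, 10.6- and 17.95-fold in bone controls, while in brain controls the ratio was 0.515 and 0.535. In exposed brain the ratio was 0.823, 4.65 and 4.23, above both controls in each library. In exposed bone it ran from 1.62 (replicate 3) to 98.9 (replicate 10), with a median of 6.70. Exposed lung ran from 252 to 674 apart from replicate 1, at 12.01.

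**Figure D5:**
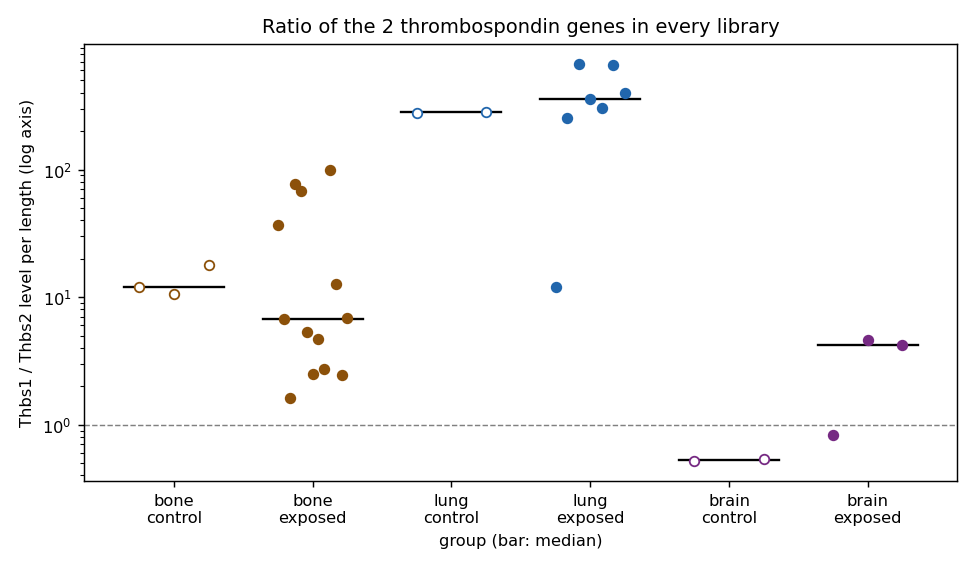
Ratio of Thbs1 to Thbs2, each per base of exon, in every library of the 6 groups (log axis; open points controls, filled points exposed, bar at the median, dashed line at equal levels). Lung lies highest, both brain controls lie under 1, and exposed bone spans 1.62 to 98.9 around controls at 10.6 to 17.95.

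Genes around the 8 were taken from 5 lists, and edgeR called none of their members in any tissue. Of 25 other matricellular genes, 22 were fitted higher in exposed bone (median log2 fold change 0.75, against 0.09 over all genes), and 2 had an unadjusted p under 0.05. These were Ccn2, a growth factor binding protein induced by TGF-beta (263 ± 240 CPM, SD, n = 13, against 53.7 ± 10.8, n = 3), and Comp, the cartilage thrombospondin (181 ± 162 against 35.6 ± 13.7 CPM). Their log2 fold changes were 2.30 (SE 0.90) and 2.37 (SE 0.97), both with an adjusted p of 0.985, and 1.96% of all genes had such a p and a higher level in bone. In brain 7 of 24 tested had such a p, all higher, among them Spp1 (osteopontin) at 365 ± 144 CPM (SD, n = 3) against 43.0 ± 25.4 (n = 2) and Tgfbi at 101 ± 67.3 against 8.25 ± 3.78 CPM. Their log2 fold changes were 3.03 (SE 0.56) and 3.55 (SE 0.73), with adjusted p values of 0.216 and 0.242. Over all genes tested in brain, 9.14% had such a p and a higher level. DESeq2 called 3 and limma-voom 7 of the 24 in brain, where they called 4.25% and 5.37% of all genes. In bone they called 0 and 4 of the 25, against 0.093% and 15.8% of all genes, so that the limma-voom share was near that of all genes.

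Receptors of the 8 proteins (16 genes) had a median log2 fold change of 0.26 in bone, 0.29 in lung and 0.66 in brain (15 tested). In brain 7 had an unadjusted p under 0.05, all higher (9.14% of all genes), led by Itga5, the alpha chain of the main fibronectin receptor, and Stab1, a scavenger receptor for SPARC. Itga5 stood at 34.4 ± 7.64 CPM (SD, n = 3) against 8.54 ± 1.48 (n = 2), with a fitted log2 change of 1.95 (SE 0.33, adjusted p = 0.210). DESeq2 called 4 and limma-voom 6 of the 15 in brain (4.25% and 5.37% of all genes). In bone and lung no receptor had such a p with edgeR, while limma-voom called 5 of the 16 in bone (15.8% of all genes) and DESeq2 none. In bone 11 of the 16 were fitted higher (58.0% of all genes), with the smallest p for Sdc4 (log2 fold change 1.28, SE 0.69) and Lrp1 (1.04, SE 0.65). Among those fitted lower were Cd44 (-0.70, SE 0.44) and Cd47, a receptor of thrombospondin 1. Cd47 stood at 223 ± 104 CPM in exposed bone against 323 ± 27.0 CPM (log2 fold change -0.53, SE 0.41).

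Fibrillar collagens and their crosslinking enzymes (15 genes) were fitted higher in each tissue, 15 of 15, with medians of 1.01 in bone, 1.44 in lung and 2.45 in brain. Over all genes 58.0%, 61.2% and 51.6% were fitted higher. In brain 12 of the 15 had an unadjusted p under 0.05, all higher, against 9.14% of all genes. DESeq2 called 8 and limma-voom 10 there (4.25% and 5.37% of all genes), and in bone limma-voom called 3 (15.8% of all genes) and DESeq2 none. Col1a2 stood at 356 ± 240 CPM (SD, n = 3) against 33.1 ± 4.43 (n = 2), with a fitted log2 change of 3.36 (SE 0.80, adjusted p = 0.248). In bone Lox, a crosslinking enzyme, was the one with such a p (2.43, SE 1.10), and in lung there was none.

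Of 15 TGF-beta pathway genes, 6 had an unadjusted p under 0.05 in brain, all higher (9.14% of all genes), led by the receptor Tgfbr2 (log2 fold change 1.66, SE 0.29, adjusted p = 0.210). DESeq2 called 5 and limma-voom 6 of the 15 in brain (4.25% and 5.37% of all genes), and limma-voom called 3 in bone (15.8%). Tgfb1, the ligand, had a log2 fold change of -0.54 (SE 0.29) in bone and -0.34 (SE 0.36) in lung. Of 15 proteases and inhibitors, 5 of the 14 tested in brain had such a p, all higher (9.14% of all genes), and DESeq2 and limma-voom called 3 each. In bone limma-voom called 4 of the 15 (15.8% of all genes) and DESeq2 none. Those with such a p in brain included Adamts4, which cleaves versican, at 1.295 (SE 0.33), and Mmp2 at 2.40 (SE 0.74). In bone Timp1 and Mmp3 had one (3.02, SE 1.34, and 2.95, SE 1.38), and Mmp9, made by neutrophils and macrophages, had a log2 fold change of -1.54 (SE 0.93).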

How the data were processed

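The table that the authors deposited holds raw counts of 43346 mouse Ensembl genes in 30 libraries and was used unchanged. The submitters' processing notes list STAR 2.5.2b and HTSeq. The sources used here give neither the annotation, the strand setting nor the handling of human reads. Per the labels' protocols, RNA came from 50000 sorted cells. Symbols, positions and exonic lengths came from GENCODE M21 (GRCm38), which matched 42462 IDs.

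Counts were tested over all genes with edgeR 4.0.16 in R 4.3.3 (quasi-likelihood F-test, two-sided, robust, scaled by TMM and filtered by filterByExpr, Benjamini-Hochberg adjusted p under 0.05), each tissue alone. Differences of change used all 30 libraries in 1 fit, and controls another. All 8 genes passed the filter in each fit. CPM uses the unscaled library total, and RPKM divides it by exonic length. Groups follow the labels, and exposed replicates are numbered in accession order. Brain control titles are numbered 1 and 2 and their count columns 2 and 3, and the title numbers were used. By these, control replicates did not pair: correlations of their deviations were 0.0216, -0.0798 and -0.0340. No pair of libraries agreed within sampling noise (lowest chi-square per degree of freedom 9.64).

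Genes named outside the 8 were the up to 2 of smallest p per list and direction, and the 3 most alike by r. Some genes that this rule names are not reported here. The 8 genes and all lists were chosen with earlier results of these data known. Alternatives were RLE and upper quartile scaling, no filter, DESeq2 1.42.0, limma-voom (limma 3.58.1), leaving out each library, single CTC lines, and a replicate block. The procedure was also run on simulated data, and the outcome is not reported here.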

Additional observations from a re-analysis of the deposited data

Results flagged for a closer look

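Of 24 sets of 4 to 10 libraries examined (each of the 8 genes in exposed lung and in exposed bone of the Brx50 and Brx68 lines), 11 held 1 library far from the others. Chance flags about 1 in 20 such sets, and sets that share a library are not independent.

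Exposed lung replicate 1 stood far above the other 6 exposed lung libraries in 6 genes. It held 11765 CPM of Fn1, 172 CPM of Postn, 207 CPM of Thbs2, 4046 CPM of Sparc, 278 CPM of Vcan and 1316 CPM of Fbln2. Exposed bone replicate 3 stood far above the other 3 Brx50 bone libraries in Fn1 (5698 CPM), Postn (3537 CPM) and Sparc (4893 CPM). Among the 7 Brx68 bone libraries, replicate 9 stood far above the others in Tnc (1214 CPM), and replicate 10 in Thbs1 (9016 CPM).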

How the results depend on the processing

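Numbers of the 8 genes called were 0 in bone, lung and brain and in each comparison of changes, with these exceptions. limma-voom called 1 in bone, 4 in brain and 1 each in brain minus bone and brain minus lung. DESeq2 called 4 in brain and 1 in brain minus bone. With no filter 1 was called in brain, and leaving out 1 library gave 0 to 1 there. Between controls, leaving out 1 library gave 6 to 7, 8 and 5 to 7 genes. limma-voom called 8, 8 and 5 there, and edgeR with no filter 8, 8 and 6. With a replicate block, by the numbers in the titles, the counts were 7, 8 and 7, and Thbs2 in lung minus brain was -0.88 (adjusted p = 0.00285). The cause was not tested.

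Of 945 values of single genes under an alternative, 37 changed sign, none of them a called value. In bone, limma-voom gave Postn -0.57, Tnc -0.0697 and Thbs2 -0.24, and Brx50 libraries alone gave Thbs2 -0.17 and Vcan -0.17. Leaving out 1 library gave ranges of -0.0231 to 0.42 (Postn) and -0.13 to 0.56 (Thbs2). In lung, limma-voom gave Postn -0.20, Thbs2 -0.20, Vcan -0.27 and Fbln2 -0.0021. DESeq2 gave Thbs2 -0.21 and Fbln2 -0.0111, and it replaced the counts of exposed replicate 1 for both, 1837 by 95 and 11672 by 484. Brx50 libraries alone gave Postn -0.9996, Thbs1 -0.38, Thbs2 -0.81, Sparc -0.52, Vcan -0.21 and Fbln2 -0.50. Without exposed replicates 1 and 6, an alternative chosen after the data were seen, Postn was -0.24, Thbs2 -0.0661 and Vcan -0.29. Leaving out 1 library in lung gave -0.46 to 0.31 (Postn), -0.10 to 0.27 (Thbs1), -0.25 to 1.93 (Thbs2), -0.12 to 0.67 (Vcan) and -0.0435 to 2.36 (Fbln2). In brain, limma-voom gave Vcan 0.0852, and leaving out 1 library gave -0.0551 to 0.65 (Sparc) and -0.34 to 0.39 (Vcan). Ranges were -0.21 to 0.53 for Sparc in lung minus brain controls, and -0.0419 to 1.72 (Tnc) and -0.74 to 0.23 (Thbs1) for Brx68 minus Brx50.

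In the brain fit the genes called over all genes numbered 1 with edgeR, 273 with no filter, 712 with DESeq2 and 899 with limma-voom. Bone gave 0, 0, 17 and 2896, and lung 0, 0, 3 and 1. Upper quartile scaling moved the median log2 fold change of all bone genes from 0.09 to 0.20, and no sign among the 8 genes turned with RLE or upper quartile scaling. With 2 or 3 controls a tissue, and 1 left where a brain or lung control was dropped, the lone control is assumed to vary like the exposed group.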
